A study of Mus musculus with 3 samples.

Results

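The MYC and MAX network was followed here through the open chromatin of its 10 genes in BCR-ABL-transformed mouse B-cell precursors. The genes were *Myc*, *Mycn*, *Mycl*, *Max*, *Mxd1*, *Mxd3*, *Mxd4*, *Mxi1*, *Mnt* and *Mga*, out of 21938 protein-coding genes of the annotation. They were taken by name, and every ATAC-seq peak that touched a gene body or the 20 kb on either side of it was assigned to the gene. For *Myc*, peaks from there to 2 Mb past its 3′ end were described as well. Peaks of the 4 lists that overlapped by at least 1 bp were merged into regions, which gave 42 regions around the 10 genes and 43 downstream of *Myc*, of 50965 regions in all.

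ATAC-seq marks accessible DNA by the insertions of a transposase. It had been performed on pre/pro-B-cell lines grown from mouse bone marrow after retroviral transduction with BCR-ABL(p185), an oncogene of acute lymphoblastic leukemia that every line carried. The bone marrow was homozygous either for wildtype CDK6 (WT, *Cdk6*+/+) or for the kinase-inactive CDK6 K43M (K43M, *Cdk6*KM/KM), and each list of peaks came from 1 line, with 2 lines per genotype. The labels do not say whether the lines of a genotype came from separate mice, so p-values measure the spread between lines. The lists are called WT replicate 2, K43M replicate 1 and K43M replicate 2 after their labels. The remaining list has no label of its own and was taken as the other WT line from the design text of the series. It is called WT unnumbered here, and 4 values given in a row stand for WT unnumbered, WT replicate 2, K43M replicate 1 and K43M replicate 2, in that order.

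The lists held 33038, 34248, 39038 and 34752 peaks. Their genome-wide background, recovered from the deposited peak values, was 65.3, 56.7, 55.1 and 48.4 read ends per 10 kb, and the total read number of a library was not known. Fold enrichment is the authors' ratio of the pileup of extended read ends at a peak's summit to the local background in the same list. Because the local background is taken over 10 kb around the summit, it also holds the reads of the peak and of open regions near it. The summit pileup itself was therefore recovered and divided by the genome-wide background of its list, which gives a value that nearby open chromatin does not lower. Promoter peaks of 5 of 6 precursor B-cell genes (*Cd79a*, *Vpreb1*, *Igll1*, *Pax5* and *Ebf1*, but not *Cd79b* in K43M replicate 2) were present in all 4 lists. None of 3 T-cell genes, none of 3 myeloid genes and not the erythroid gene *Hbb-bs* had one in any list.

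MYC, MYCN and MYCL are transcription factors of the basic helix-loop-helix leucine zipper family that bind the E-box CACGTG as dimers with MAX and promote growth and proliferation. MXD1, MXD3, MXD4, MXI1 (also known as MXD2) and MNT compete for MAX, bind the same E-box and repress transcription by way of SIN3 corepressors. MGA is a very large MAX partner and belongs to a polycomb repressive complex. In B-cell precursors MYC drives the proliferation of pre-B cells, and in the blood lineage its gene is known to be served by enhancers that lie far downstream of it.

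All 10 genes had a promoter peak in all 4 lists, where 47.6% of the 21938 protein-coding genes did. A promoter was the stretch from 2000 bp before to 200 bp after an annotated transcription start. The values below are those of the promoter region with the highest mean fold enrichment of each gene. Each gene thus also had its peak in the 3 labelled lists, which follows from the count and is no separate test.

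An E-box lay in the RefSeq promoter (250 bases before to 50 after the start, GRCm38.p6) of *Max*, *Mxd4* and *Mnt*. The table of RefSeq promoters matched 9 of the 10 genes, all but *Myc*, and 7.15% of its 32851 promoters hold CACGTG, which reads the same on both strands. These stretches of 30 bases are shown because they carry the sequence that the network's own proteins bind, with the E-box in capitals.
Max, chr12:76962234-76962263, minus strand: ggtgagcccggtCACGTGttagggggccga
Mxd4, chr5:34187912-34187941, minus strand: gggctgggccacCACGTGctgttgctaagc
Mnt, chr11:74830789-74830818, plus strand: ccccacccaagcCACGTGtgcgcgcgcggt
The E-box of *Max* began 3 bases before the transcription start in the table, at -3, and those of *Mxd4* and *Mnt* at -219 and -123. All 3 lay inside regions with a peak in every list: the *Max* and *Mxd4* E-boxes lay in the promoter regions described below, and that of *Mnt* in the region over its first start.

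The promoter region of *Myc* (chr15:61984846-61985779, GRCm38) had fold enrichments of 3.93, 5.34, 4.75 and 6.04. These are low values, at percentiles 6.53 to 40.6 of their lists. The summit pileups behind them, 36.7, 40.6, 46.3 and 44.4 times the genome-wide background, were at percentiles 75.1 to 81.5. The local background around *Myc* was 574, 390, 497 and 314 read ends per 10 kb, at percentiles 92.4 to 98.3. This mean over 10 kb includes the reads of the promoter peak and of open regions near it. Relative to this background the fold enrichment was low, although the pileup was not. The K43M and WT lists overlapped in fold enrichment (log2 difference K43M minus WT 0.23 ± 0.21, SE, adjusted p = 0.746, limma). A region inside *Myc*, 1.69 kb past its start, had a peak in all lists but WT replicate 2, with fold enrichments of 3.48, 3.21 and 3.75 in the other lists. Another region, 14.4 kb past the start and outside any annotated gene, had a peak in all lists but WT unnumbered, with fold enrichments of 6.09, 7.76 and 10.7 in the other lists.

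*Mycn*, the paralog best known from neural tumors and also used by early B-cell precursors, had fold enrichments of 6.60, 7.31, 6.01 and 8.40 at its promoter (chr12:12941451-12942741). Its pileups, 39.0, 37.9, 32.6 and 42.4 times background, overlapped those of *Myc*. The *Mycn* values of the genotypes overlapped on both scales. *Mycl*, the third paralog, had 2 open promoter regions. The one at its first start (chr4:122995359-122996498) had fold enrichments of 6.15, 5.50, 5.10 and 5.16, and the one over an internal start (chr4:122996799-122997404) had 4.81, 7.07, 6.31 and 4.60. A region at -10.4 kb from the *Mycl* start (chr4:122985057-122985462) had higher fold enrichments than either, 13.2, 10.8, 13.2 and 10.2. Its pileups were 29.9, 29.1, 26.3 and 24.8 times background, higher than at both starts in the WT lists but not in the K43M lists, where the first start had 28.1 and 25.8. At the first *Mycl* start the K43M pileups were thus higher than the 16.8 and 18.5 times background of the WT lists, which was not called (log2 difference 0.48 ± 0.18, SE, adjusted p = 0.236, limma on the pileup), and the fold enrichments went the other way (-0.18 ± 0.15, SE, adjusted p = 0.715, limma).

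*Max*, the shared dimer partner, had 1 region in its window in every list, the promoter region at chr12:76961555-76962817. Its fold enrichments were 12.7, 11.4, 9.86 and 10.1, at percentiles 78.2 to 93.8. The summit pileups were 113, 92, 55 and 42 read ends (95% Poisson intervals 93.1 to 136, 74.2 to 113, 41.4 to 71.6 and 30.3 to 56.8, which cover counting error alone). Divided by the background of each list they were 86.5, 81.1, 49.9 and 43.4. Both K43M lists thus lay below both WT lists, on either scale. The limma fit used log2 pileups centered on each list's median, so its fold is not the ratio of these values. In this fit the difference in pileup had a log2 value of -0.98 ± 0.18 (SE), a fold of 0.507. It was not called after adjustment over all 21012 regions (adjusted p = 0.068, limma). In fold enrichment it was -0.26 ± 0.15 (SE, adjusted p = 0.551, limma). The local background at *Max* was also lower in K43M (400, 358, 234 and 162 read ends per 10 kb). The median difference in pileup was -0.19 over chromosome 12 and -0.30 over the 17 regions within 1 Mb of *Max*, and the part of the surroundings in the *Max* value was not tested. A lower pileup in every cell and a lower share of cells with an open promoter cannot be told apart.

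*Mga* went the opposite way. At its promoter (chr2:119896771-119897789) fold enrichments were 9.78, 8.87, 12.2 and 13.1. The summit pileups were 35, 35, 65 and 58 read ends (95% Poisson intervals 24.4 to 48.7 for each WT list, 50.2 to 82.8 and 44.0 to 75 for the K43M lists), or 26.8, 30.9, 58.9 and 59.9 times background. Both K43M lists lay above both WT lists, on either scale. The log2 difference, centered as for *Max*, was 0.92 ± 0.18 (SE) in pileup, a fold of 1.89, and was not called (adjusted p = 0.0765, limma). In fold enrichment it was 0.45 ± 0.16 (SE, adjusted p = 0.309, limma). The local background at *Mga* was also higher in K43M (134, 153, 220 and 175 read ends per 10 kb), and its part in the *Mga* value was not tested. The 48 regions within 1 Mb of *Mga* had a median difference in pileup of -0.05, and so had the promoter of *Mapkbp1* (log2 difference -0.05), the other region in the *Mga* window, with 43.6, 39.7, 42.6 and 45.5 times background. With any 1 list left out, the log2 differences in pileup ranged from -1.05 to -0.91 for *Max* and from 0.84 to 0.99 for *Mga*. Both K43M lists lay on the same side of both WT lists, so leaving out a list does not test the sign.

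Among the MXD proteins, MXI1 and MNT, *Mxd1* had the promoter with the highest fold enrichment (chr6:86668828-86669854). Its fold enrichments were 14.4, 13.5, 14.5 and 13.0, at percentiles 95.8 to 98.3 of the lists, and its pileups were 91.9, 90.8, 109 and 110 times background. An intronic *Mxd1* region 14.6 kb past the start (chr6:86654392-86654828) had fold enrichments of 4.77, 8.72 and 6.80 and no peak in WT replicate 2. The promoter of *Mxd4* (chr5:34187581-34188363) came next among these, with fold enrichments of 11.1, 11.9, 9.84 and 10.5 and pileups of 80.4, 85.5, 108 and 85.8 times background. Among its promoter regions, *Mxi1* had the highest mean fold enrichment over an internal start (chr19:53329093-53329877), with fold enrichments of 7.92, 8.86, 8.03 and 8.14. A region inside *Mxi1* but outside its promoters, given below, was higher in both WT lists and lower in both K43M lists. The *Mxi1* window held 11 regions, 6 of them in all lists. They included a promoter region 2.84 kb past the first start (chr19:53313047-53313999, fold enrichments 4.17, 5.03, 4.27 and 3.80) and an intronic one 3.79 kb past it (chr19:53314092-53314509, 6.56, 7.05, 6.48 and 5.60). The first start itself had a peak in WT replicate 2 alone, with a fold enrichment of 2.90. Its pileup there was 27.3 times background, at percentile 62.7, over a local background of 502 read ends per 10 kb, at percentile 98.1. *Mnt* likewise had its highest fold enrichments over an internal start (chr11:74837627-74838805), with 8.96, 7.67, 9.95 and 8.73 and pileups of 52.1, 53.8, 71.6 and 64.1 times background. Its first start lay in a region (chr11:74829858-74831044) with fold enrichments of 5.66, 4.71, 4.83 and 5.78 and a local background of 616 to 675 read ends per 10 kb, higher than that at the *Myc* promoter in every list. In pileup the first *Mnt* start, with 62.0, 58.2, 62.6 and 78.5 times background, was the higher region in all lists but K43M replicate 1. *Mxd3* (chr13:55329284-55330691) had fold enrichments of 7.39, 7.63, 6.55 and 5.78 and pileups of 44.4, 46.7, 39.0 and 25.8 times background. For *Mxd3*, the K43M lists lay below the WT lists, and the log2 difference was -0.65 ± 0.22 (SE) in pileup (adjusted p = 0.205, limma) and -0.29 ± 0.15 (SE) in fold enrichment (adjusted p = 0.483, limma). Here too the surroundings moved with the promoter: the median difference in pileup was -0.31 over chromosome 13 and -0.36 over the 40 regions within 1 Mb of *Mxd3*, and their part in its value was not tested.

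**Figure D1:**
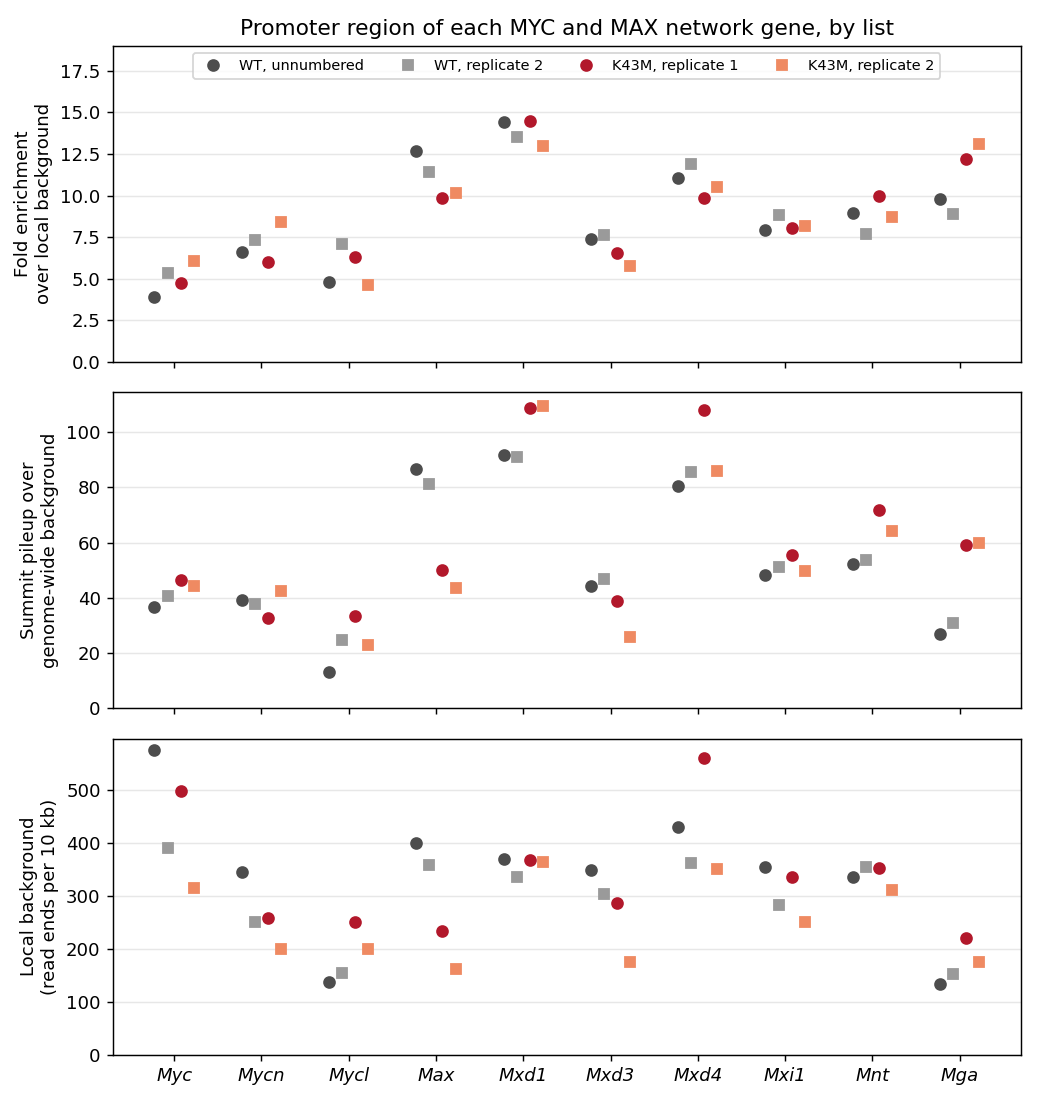
Values at the promoter region of each gene, with 1 point per list: fold enrichment over the local background (top), summit pileup over the genome-wide background of the list (middle) and local background in read ends per 10 kb (bottom). *Max* is lower and *Mga* higher in both K43M lists than in both WT lists (pileups over background 86.5, 81.1, 49.9 and 43.4 for *Max* and 26.8, 30.9, 58.9 and 59.9 for *Mga*), and *Myc* combines the lowest fold enrichment in WT unnumbered (3.93) with the highest local background there (574).

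Across the 10 promoters, both K43M lists had a higher fold enrichment than both WT lists at 1 gene (*Mga*) and a lower one at 3 (*Max*, *Mxd3* and *Mxd4*). Of all 21012 regions with a peak in every list, 21.2% were higher and 20.5% lower in this sense. In pileup over background, 5 genes (*Myc*, *Mxd1*, *Mxd4*, *Mnt* and *Mga*) were higher in both K43M lists and 2 (*Max* and *Mxd3*) lower, against 37.4% and 13.8% of all regions. This scale is not centered on list medians, as the limma fit is, and over all regions it leans toward K43M. *Mxd4* thus stood on opposite sides on the 2 scales. The limma fit on fold enrichment called no region higher (0%) and none lower (0%) in K43M at an adjusted p under 0.05, genome-wide or among the network genes. It had 2610 regions at an unadjusted p under 0.05. Without WT unnumbered it called 88 regions higher and 13 lower, and without WT replicate 2 it called 116 higher and 42 lower, with 0 among the network genes in both cases. The same fit on the pileup called 24 regions higher (0.114%) and 11 lower (0.0524%), with 3692 at an unadjusted p under 0.05, and none of them belonged to the 10 genes or to the stretch downstream of *Myc*. The smallest adjusted p of a region of the 10 genes was 0.257 in fold enrichment (limma), for a region within *Mxi1*, 10.3 kb past its start (chr19:53320412-53321153, in an exon of *AC133451.2*), with fold enrichments of 10.4, 9.36, 7.87 and 5.69 (log2 difference -0.56 ± 0.17, SE).

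**Figure D2:**
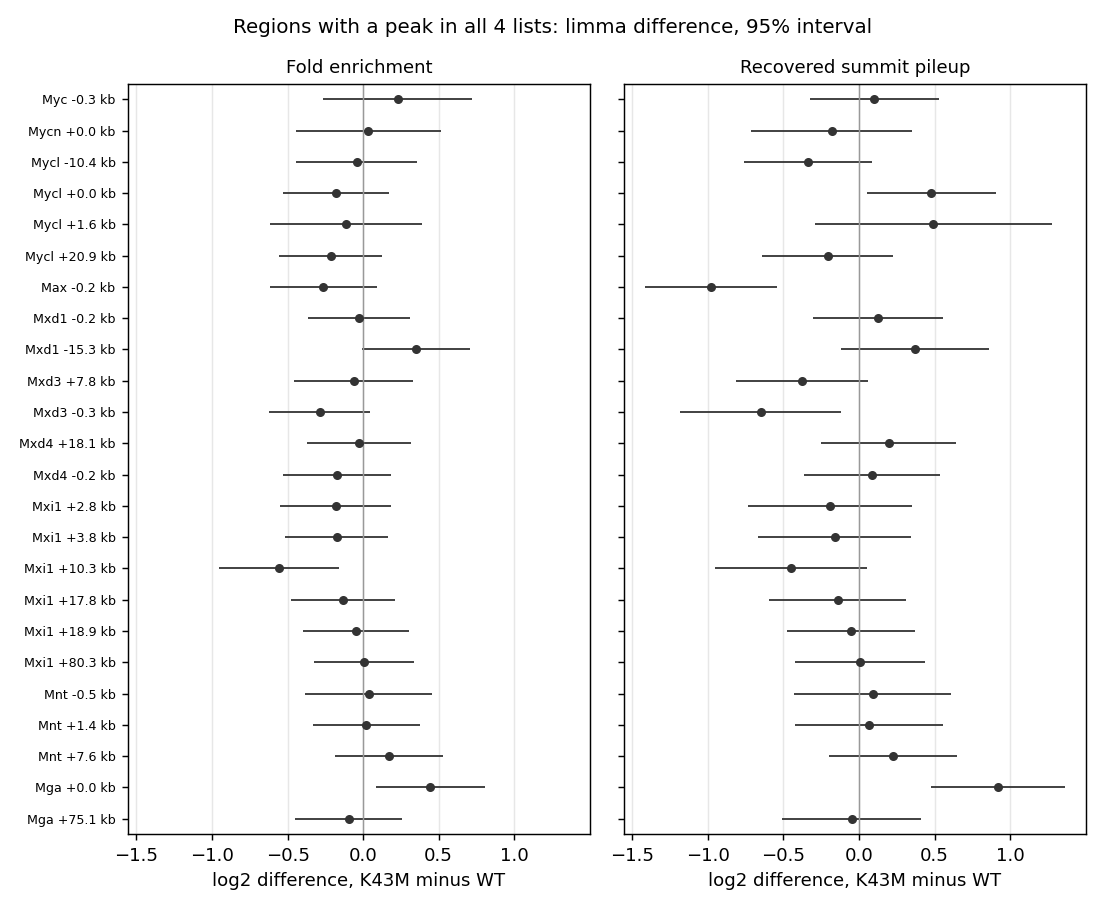
Log2 differences, K43M minus WT, from the limma fits for the 24 shared regions of the 10 genes, those with a peak in every list, in fold enrichment (left) and in recovered summit pileup (right). Points are estimates and lines 95% intervals; labels give the gene whose window holds the region and the distance of the summit from that gene's start. The *Max* promoter (-0.98) and the *Mga* promoter (0.92) lie farthest from 0 in pileup.

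The windows held 32, 32, 37 and 34 peaks, a mean of 32 in WT and 35.5 in K43M (difference 3.5, exact permutation test over the lists, two-sided, p = 0.333, the smallest p that 2 against 2 lists allow). Per 1000 peaks of a list this was 0.969, 0.934, 0.948 and 0.978, and the genotypes overlapped. *Mxi1* had the most peaks, 8, 10, 10 and 8. *Max* had 1 in each list, and *Mycn* and *Mga* had 2 in each. *Myc* had 2, 3, 4 and 3, *Mycl* 4, 4, 4 and 5, and *Mxd1* 3, 2, 4 and 3. *Mxd3* had 5, 3, 3 and 3, *Mxd4* 2, 2, 3 and 3, and *Mnt* 3, 3, 4 and 4. Of the 42 regions, 24 (57.1%) had a peak in all 4 lists and 8 in a single list. The windows were denser in regions than those of protein-coding genes as a whole, with 6.61 against 3.58 regions per 100 kb of summed window length. The median window held 4 regions against 3. They also hold promoters of neighboring genes, among them *Trit1* beside *Mycl*, *Snrnp27* beside *Mxd1*, *Prelid1* and *Rab24* beside *Mxd3*, *Haus3* and *Poln* beside *Mxd4*, and *Smndc1* beside *Mxi1*.

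**Figure D3:**
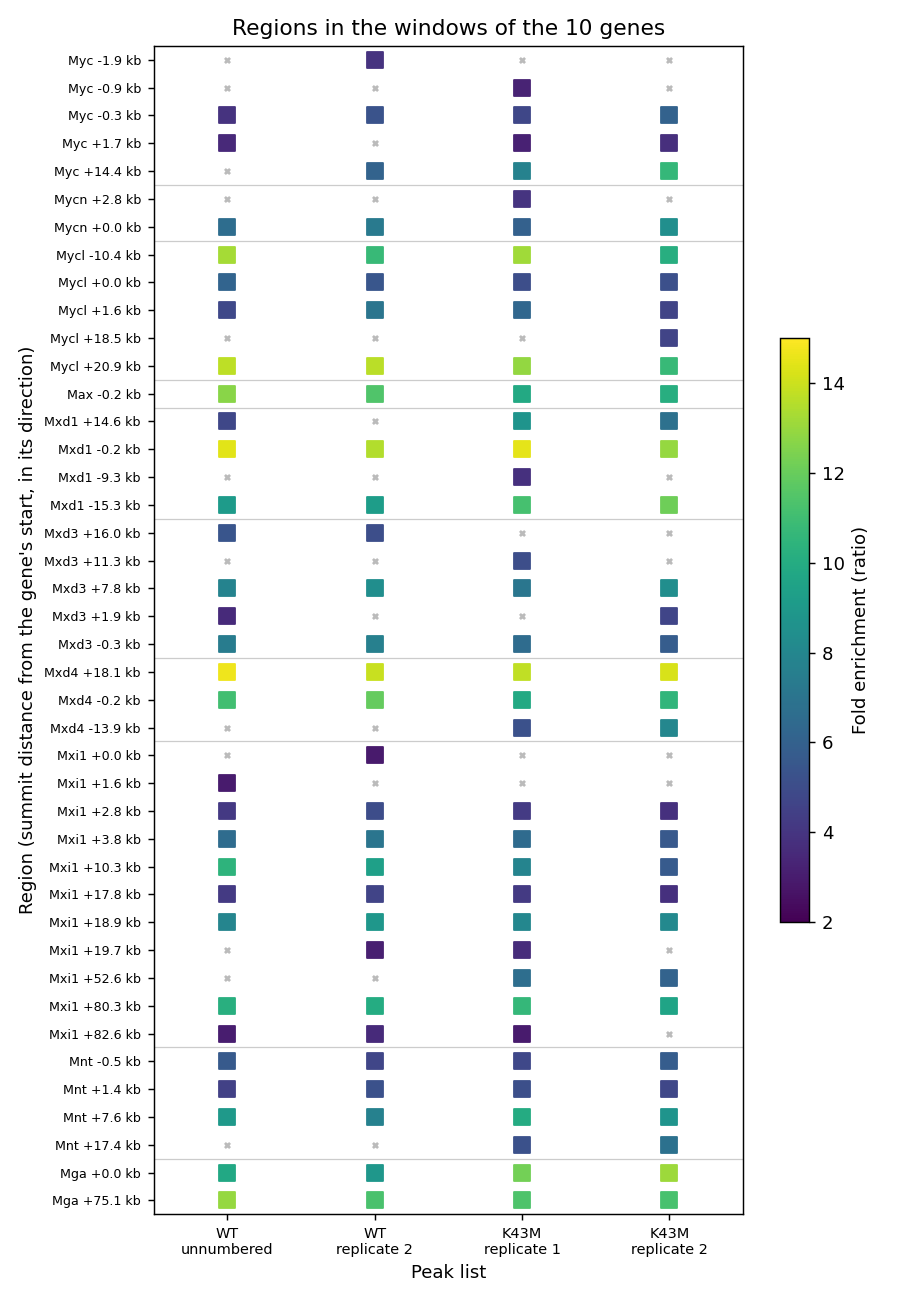
The 42 regions of the 10 gene windows (rows, named by gene and by the distance of the summit from its start) in the 4 peak lists (columns). Squares mark a peak, colored by its fold enrichment, and crosses mark no peak. Of the 42 regions, 24 have a square in every column, 1 in both WT columns alone and 3 in both K43M columns alone.

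Regions strictly limited to a genotype had a peak in both of its lists and none in the opposite pair, and their summit pileups were low. There was 1 WT-only region (2.38% of the 42), against 4.51% of all regions, and there were 3 K43M-only regions (7.14%), against 7.64%. The shares are near or below those of the genome. The WT-only region (chr13:55313479-55313984) lay in an exon of *Nsd1*, 16.0 kb past the start of *Mxd3*, with fold enrichments of 5.45 and 5.08. The K43M-only regions lay in an intron of *Zfyve28* at -13.9 kb from the *Mxd4* start (chr5:34201291-34201738, fold enrichments 5.23 and 8.0), in an intron of *Mxi1* (chr19:53363027-53363271, 6.66 and 6.10) and between genes 17.4 kb past the start of *Mnt* (chr11:74847867-74848473, 5.22 and 6.83). Their summit pileups were 10 to 18 read ends. With WT unnumbered left out, the counts were 3 WT-only and 5 K43M-only regions, with WT replicate 2 left out 3 and 4, with K43M replicate 1 left out 2 and 4, and with K43M replicate 2 left out 1 and 7. Leaving out a list loosens the definition, so such counts tend to rise in any set of regions. The matching shares over all regions are not given. The sequences around the summits of the K43M-only regions (151 bases of the GRCm38 plus strand) are given because peaks were called there in K43M alone. Capitals mark the 11 bases centered on the summit.
Near Mxd4, chr5:34201543-34201693: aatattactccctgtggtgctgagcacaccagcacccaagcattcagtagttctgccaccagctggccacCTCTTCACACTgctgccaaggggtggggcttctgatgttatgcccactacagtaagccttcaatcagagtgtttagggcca
Within Mxi1, chr19:53363069-53363219: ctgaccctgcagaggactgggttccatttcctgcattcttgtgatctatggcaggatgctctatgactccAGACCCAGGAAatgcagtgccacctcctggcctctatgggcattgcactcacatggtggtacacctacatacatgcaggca
Past Mnt, chr11:74848265-74848415: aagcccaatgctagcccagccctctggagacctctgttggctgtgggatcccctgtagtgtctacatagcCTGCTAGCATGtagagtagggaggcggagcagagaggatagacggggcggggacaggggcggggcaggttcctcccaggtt
None of the 3 held CACGTG within 100 bp of its summit.

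Downstream of *Myc* the lists held 24, 23, 32 and 30 peaks, more in both K43M lists than in both WT lists. The difference of 7.5 peaks had p = 0.333 (exact permutation test, two-sided), the smallest p the design allows, and per 1000 peaks of a list the counts were 0.726, 0.672, 0.820 and 0.863. Of the 43 regions, 13 (30.2%) had a peak in all 4 lists and 13 in a single list. Compared with the same stretch past other protein-coding genes, whose median was 51 regions and 21 in all 4 lists, *Myc* was at percentile 40.7. The open regions were unevenly spread. The stretch from 1600 to 1700 kb past the *Myc* start, within the long noncoding gene *Gm41335*, held 9 regions with 8, 6, 9 and 8 peaks, and 5 of the 13 regions shared by all lists. Regions from 700 to 900 kb held another 4 of the 13. None was found between 500 and 700 kb, between 900 and 1100 kb or between 1800 and 1900 kb. *Pvt1*, the noncoding gene next to *Myc*, had a promoter region in all lists (chr15:62037650-62038889, fold enrichments 6.40, 7.24, 5.43 and 6.18). A second region of the *Pvt1* promoter, 53.8 kb past the *Myc* start, had fold enrichments of 5.17, 9.21 and 8.46 and no peak in WT replicate 2.

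The regions with the highest mean fold enrichment downstream lay 713 kb (chr15:62698221-62699325, in an intron of *Gm41333*), 839 kb (chr15:62823827-62824961), 1626 kb (chr15:63611003-63611530), 1673 kb (chr15:63657670-63658744) and 1939 kb (chr15:63924297-63925009) past the *Myc* start, with a list without a peak counted as 0 in the mean. At 713 kb the fold enrichments were 11.1, 10.4, 13.1 and 10.1, above those of the *Myc* promoter in every list, while the pileups of 32.2, 35.3, 40.8 and 36.2 times background were below those of the *Myc* promoter in every list. A region at 1694 kb (chr15:63678931-63679540) had no peak in WT unnumbered and fold enrichments of 8.26, 10.3 and 8.05 in the other lists. At 839 kb they were 8.81, 10.2, 10.6 and 8.82, and at 1626 kb 9.75, 10.1, 8.53 and 9.92. At 1673 kb they were 8.12, 9.97, 8.65 and 8.21, and at 1939 kb, in an exon of the pseudogene *Gsdmcl-ps*, 8.12, 5.62, 9.81 and 8.28. None of these 5 was called by limma (adjusted p from 0.446 to 0.962). The region at 1663 kb (chr15:63647810-63648847) had the lowest adjusted p downstream, with fold enrichments of 9.11, 9.09, 7.36 and 4.94 (log2 difference -0.59 ± 0.18, SE, adjusted p = 0.261, limma). The 151 bases around the summits of the leading 4 are given as the distal sequences that lead this order, with matches to motifs of B-cell factors in capitals (TCCC and GGGA 2 bases apart for EBF1 and TGTGGTT of RUNX factors in the first, ACTTCC of ETS factors in the next 2, on either strand). RUNX, ETS and EBF1 proteins are factors that B-cell precursors require.
At 713 kb, chr15:62698705-62698855: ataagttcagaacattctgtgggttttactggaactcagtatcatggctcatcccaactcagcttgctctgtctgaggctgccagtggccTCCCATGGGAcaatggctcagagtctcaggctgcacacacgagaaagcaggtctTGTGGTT
At 839 kb, chr15:62823960-62824110: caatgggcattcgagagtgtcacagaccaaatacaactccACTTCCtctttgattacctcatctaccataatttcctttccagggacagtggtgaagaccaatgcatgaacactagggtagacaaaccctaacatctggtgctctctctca
At 1626 kb, chr15:63611265-63611415: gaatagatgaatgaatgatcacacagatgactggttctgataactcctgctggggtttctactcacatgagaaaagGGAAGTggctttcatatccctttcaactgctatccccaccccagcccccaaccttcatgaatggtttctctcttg
At 1673 kb, chr15:63658134-63658284: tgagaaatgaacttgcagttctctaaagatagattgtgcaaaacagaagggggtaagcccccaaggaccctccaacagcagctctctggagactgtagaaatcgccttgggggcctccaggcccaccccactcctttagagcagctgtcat
The sequence at 1673 kb held no match to the motifs searched in these 151 bases.

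**Figure D4:**
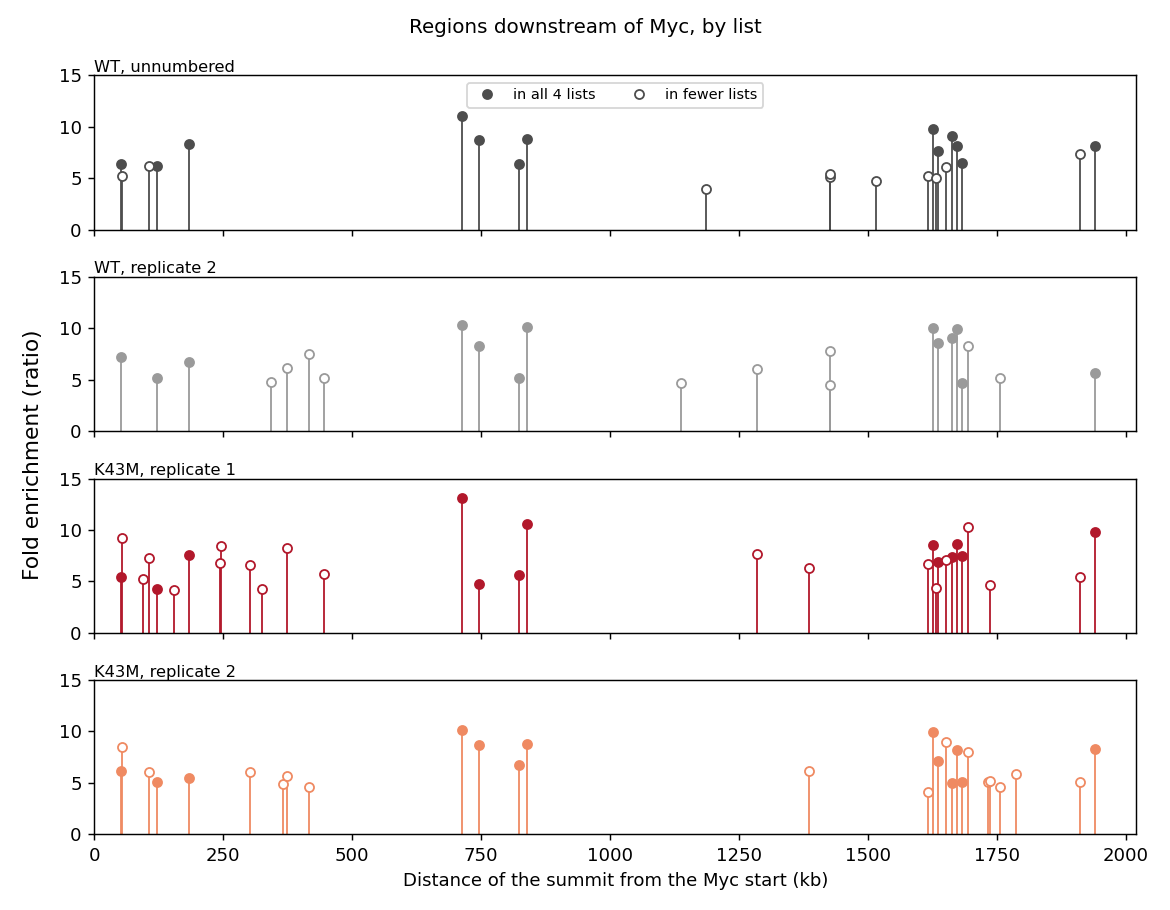
Fold enrichment of the peaks downstream of *Myc* in each list by the distance of the region's summit from the *Myc* start, with filled points where every list has a peak. The regions shared by all lists gather between 700 and 900 kb and between 1600 and 1700 kb, and the highest point of every list is the region at 713 kb (11.1, 10.4, 13.1 and 10.1).

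Genotype-only regions downstream of *Myc* were 2 for WT (4.65% of the 43, against 4.51% of all regions) and 3 for K43M (6.98%, against 7.64%). The WT-only regions lay side by side 1426 kb past the *Myc* start (chr15:63411057-63411722, fold enrichments 5.13 and 4.44, and chr15:63411761-63412059, 5.38 and 7.78). The K43M-only regions lay in an intron of *Pvt1* at 302 kb (chr15:62286996-62287466, 6.59 and 6.09), at 1386 kb (chr15:63371349-63371943, 6.25 and 6.20) and in an exon of *4930449C09Rik* at 1736 kb (chr15:63721730-63722205, 4.66 and 5.16). With single lists left out the counts were 4 and 7 without WT unnumbered, 4 and 5 without WT replicate 2, 2 and 7 without K43M replicate 1, and 2 and 8 without K43M replicate 2. Here too the definition is looser with a list left out, and the matching shares over all regions are not given. A site of each genotype is shown, with the 11 bases at the summit in capitals.
WT-only at 1427 kb, chr15:63411868-63412018: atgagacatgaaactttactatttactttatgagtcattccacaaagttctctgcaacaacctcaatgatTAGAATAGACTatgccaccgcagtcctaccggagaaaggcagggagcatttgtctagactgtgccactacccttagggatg
K43M-only at 1386 kb, chr15:63371431-63371581: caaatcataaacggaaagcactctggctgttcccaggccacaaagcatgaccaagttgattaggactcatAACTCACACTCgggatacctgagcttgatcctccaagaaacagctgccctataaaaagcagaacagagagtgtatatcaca

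CACGTG lay within 100 bp of the summit in 5 of the 42 regions of the 10 genes (11.9%, 95% Wilson interval 5.19% to 25%), against 5.09% of all regions. Of the 43 regions downstream of *Myc* none had it (95% Wilson interval 0% to 8.2%). The lower bound of the interval for the 10 genes lies just above the share of all regions. That interval treats regions of the same window as independent. Promoter regions were 27 of the 42, a larger part than among all regions, so the 2 shares are of unlike sets. Among promoter regions alone the shares were 3 of 27 (11.1%, interval 3.85% to 28.1%) and 6.9%. The 5 regions were the *Mxd4* promoter, the internal *Mycl* promoter, a region in the first part of *Mnt* 1.42 kb past its start, the shared promoter of *Prelid1* and *Rab24* beside *Mxd3*, and a region beyond *Smndc1* in the *Mxi1* window. The E-box of the *Max* promoter lay farther than 100 bp from the summit. Downstream of *Myc*, ETS motifs lay near 13 of 43 summits (30.2%, against 27.3% of all regions), RUNX motifs near 5 (11.6%, against 9.76%) and EBF1 motifs near 3 (6.98%, against 2.83%). CACCTG, an E2A motif, lay near 7 of 43 summits (16.3%, against 16.2%), and TTTCCCGC or TTTGGCGC of E2F factors lay near 1 (2.33%, against 0.751%). The 95% Wilson interval for EBF1, 2.4% to 18.6%, covers the share of all regions. In the 42 regions of the 10 genes the shares were 19% for ETS, 14.3% for E2A and 2.38% each for RUNX, EBF1 and E2F. All motifs were searched on both strands. A match describes the sequence and not the binding of a factor.

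Promoters of the wider network were described against the same 47.6% of protein-coding genes with a promoter peak in all lists. All 12 coactivators and partners of MYC (among them *Trrap*, the scaffold of histone acetyltransferase complexes, and *Wdr5*) and all 5 corepressors (*Sin3a*, *Sin3b*, *Hdac1*, *Hdac2* and *Ncor1*) had a promoter peak in all 4 lists. So did all 7 genes of MYC turnover, such as *Fbxw7*, which encodes the ubiquitin ligase subunit that recognizes MYC, and all 15 target genes, such as *Ncl*, *Npm1* and *Odc1*. Of 9 MGA partners 8 did, and *E2f6* had none in WT replicate 2. In the MLX branch, which senses glucose, *Mlx* and *Mlxip* had a promoter peak in every list, and *Mlxipl*, best known from liver and fat, had none in any list.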

How the data were processed

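ATAC-seq peak lists of 4 mouse cell lines were analysed, 2 per genotype. Following the study's methods section, reads had been trimmed by the authors (Trimmomatic 0.36), mapped to mm10 with BWA 0.7.15, filtered with bedtools and SAMtools 1.3.1, and used to call peaks with MACS2 2.1.0, read ends being extended to 200 bp. Each list is one library's. Its deposited values are a fold enrichment, a ratio of the summit to the local background, and -log10 p and -log10 q values that the authors' peak caller gave each peak. Read totals are not in such lists. Since MACS2 forms these values from a pileup and a Poisson background (pseudocount 1), both were recovered, for 100% of peaks in each list. The genome-wide background was the smallest local background of a list.

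Gene positions came from GENCODE mouse release 21 (GRCm38), and sequences from RefSeq and GRCm38. Regions with a peak in all 4 lists were compared with limma 3.58.1 (log2 values centered on each list's median, two-sided, Benjamini-Hochberg over all 21012 regions, threshold 0.05). Of several peaks of a list in 1 region, the one with the highest fold enrichment was used. The code was tested on simulated data. Named were all 10 genes, with the promoter region of highest mean fold enrichment, each genotype-only region and, downstream of *Myc*, the 5 regions of highest mean fold enrichment (no peak counted as 0); the sequences, neighbors within 1 Mb and bins of 100 kb were chosen later. The genes, lists and tests were chosen with earlier results of these data known. Intervals for shares are 95% Wilson intervals. Alternatives varied the threshold on peaks, their number, the overlap, the flanks, the normalization, the value fitted and the lists included. Calculations used Python 3.11.15, pandas 2.3.3, scipy 1.17.1, pysam 0.24.0, matplotlib 3.10.9 and R 4.3.3. Some genes of the marker and pathway lists are not reported here. Expression and CDK6 binding were not analysed here.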

Additional observations from a re-analysis of the deposited data

How the results depend on the processing

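All 10 genes had a promoter peak in every list used under the alternatives run for this count. The differences in peaks per list kept their direction under the alternatives run for them. In the alternatives that kept all 4 lists, limma called no region of the 10 genes or downstream of *Myc*. Leaving out a list could not lower the count of genes with a promoter peak, so it does not test that count. Both K43M lists held more peaks than both WT lists, so leaving out a list could not reverse those differences either. With lists cut to equal length, the differences were 2 peaks around the genes and 4 downstream of *Myc*, against 3.5 and 7.5. Counts of genotype-only regions were small and moved. The matching shares over all regions under these alternatives are not given, so the counts below are not read as a result about the genes. Wider or narrower flanks also change how many regions are counted. With -log10 q of 5 or more there were 2 WT-only regions around the 10 genes and 1 downstream of *Myc*, and with lists cut to equal length 2 around the genes. With flanks of 10 kb there were 0 WT-only regions, and with 50 kb 5 WT-only and 6 K43M-only. Up to 1 Mb downstream of *Myc* there were 0 WT-only and 1 K43M-only. Leaving out 1 list gave 1 to 3 WT-only and 4 to 7 K43M-only regions around the genes, and 2 to 4 and 5 to 8 downstream. A list left out loosens the definition, which tends to raise such counts in any set of regions. Genome-wide, limma called 24 regions higher and 11 lower in K43M on the recovered pileup, and, with 1 list left out, 0 to 116 higher and 0 to 42 lower (88 and 13 without WT unnumbered, 116 and 42 without WT replicate 2, 0 without either K43M list). A genotype left with 1 list was assumed to vary like the other. The cause of these shifts was not tested.

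Several uncalled promoter differences changed sign with the scale fitted or the lists included. In pileup, the log2 difference was -0.179 for *Mycn*, 0.493 for *Mycl*, 0.127 for *Mxd1* and 0.0841 for *Mxd4*. With 1 list left out, the log2 difference in fold enrichment ranged from -0.0192 to 0.459 for *Myc*, from -0.258 to 0.333 for *Mycn*, from -0.417 to 0.158 for *Mycl*, from -0.0813 to 0.00261 for *Mxd1* and from -0.156 to 0.0249 for *Mxi1*. The *Max* and *Mga* pileups with 1 list left out were examined after seeing the data. No paired analysis was possible because the replicate numbers mark separate lines and the genotypes share only 1 labelled number. Read depth limits the weak regions, whose summits hold few read ends, and 2 lists per genotype limit every test.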
